A study of Mus musculus with 12 samples.

Results

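Applied to a time course of mouse embryonic stem cells in which ERK was switched on by a drug, a rule on mean levels chose 41 genes that went up by 1 or 2 h and had come down again by 4 h. These were 41 of the 25897 gene symbols measured, or of the 10622 whose mean reached 3 CPM (counts scaled to a common library total) at 1 or 2 h. The rule used the means of 3 clones, in CPM of each library's total. The peak, the larger of the 1 h and 2 h means, had to reach 3 CPM. After 0.5 CPM was added to each mean, the peak had to be at least 1.5 times the untreated mean, and the 4 h mean at most 0.7 of the peak. These conditions were met by 54 symbols, and 19 symbols that it names were set aside, of which 13 met them (Egr1, Egr2, Fos, Jun, Btg2, Id3, Spry4, Plk2, Lars2, Cd44, Gphn, Kpna1 and Camk1d). Since these means chose the members, their levels and changes are a description, and no test of them is given. The rule sets 4 h against the peak and not against untreated cells, and 10 members were still above 1.5 times their untreated mean at 4 h, so that "back down" holds for them only in part.

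ERK is the last kinase of the RAF, MEK and ERK cascade, and it acts on transcription factors that are already present when the signal arrives. Genes switched on in this way without new protein synthesis are called immediate-early genes. Many of their transcripts are short-lived and their products include repressors and inhibitors of the same pathway, so that a single pulse of mRNA is a known feature of the response. In embryonic stem cells, FGF signalling through ERK moves cells away from the naive state.

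The cells of all 12 libraries were E14tg2a, a line of embryonic stem cells of 129SV background, and all carried a cRAF-ERT2 construct, a RAF kinase joined to a hormone-binding domain that is activated by 4-hydroxytamoxifen (4OHT). The 3 treated groups were given 250 nM 4OHT for 1, 2 or 4 h, and the untreated group received none. Each group had clones a, b and c, 1 library each, and p-values elsewhere in the text therefore measure the spread between 3 clones. Every group was cultured in serum and LIF, first with 2 µM Chir99021, a GSK3 inhibitor, and for the 24 h before treatment with 250 nM PD173074, an FGF receptor inhibitor, in its place. New RNA was labelled with 5 mM ethynyl uridine over the last 15 min. The libraries were made from total RNA after removal of ribosomal RNA, so the counts are not those of labelled RNA alone. A vehicle group is not among these samples, so time in the drug and any effect of its carrier cannot be told apart.

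Library totals were 24213641 to 31435301 counts, so that 1 count was worth 0.0318 to 0.0413 CPM. All 10 embryonic stem cell markers were at 10 CPM or more in every library, with a summed level of 5260 to 5628 CPM in untreated cells and 4235 to 4809 CPM at 4 h. Of 10 feeder fibroblast markers, 6 were below 1 CPM throughout, and the list's sum went from 11.3 to 14.8 CPM untreated to 19.0 to 34.0 CPM at 4 h. Sums of other lineages' markers were also higher at 4 h, from 5.97 to 6.92 CPM untreated to 22.4 to 38.3 CPM for 7 mesoderm genes, from 31.4 to 42.8 CPM to 52.8 to 128 CPM for 8 trophoblast genes and from 49.4 to 59.1 CPM to 79.3 to 111 CPM for 7 neural genes, of which Neurog2 and Tubb3 were at 0 throughout. The sum of 8 primitive endoderm genes was 65.3 to 134 CPM untreated and 66.7 to 114 CPM at 4 h. The part of other cells in the members' values was not tested. Counts assigned to Esr1, whose hormone-binding domain is the source of ERT2, differed between clones. Before treatment they stood at 10.1 CPM in clone a, 96.9 CPM in clone b and 41.3 CPM in clone c, and after 2 h at 18.3 CPM, 208 CPM and 39.9 CPM. Whether those reads came from the construct was not determined.

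The 41 members fell into groups by where they were highest. In 10 members (among them Cdk8, Gm20594, Col6a6, Zc3h7a, Il31ra, Jarid2, Kcnip1, Fgfr2 and Rsph3a) the highest of all 12 libraries was clone a at 1 h, which holds for 2.16% of all genes tested. None of these 10 met the rule in all 3 clones, and all 10 left the set when clone a was left out. Since that library defined the group, these counts are in part fixed by the choice. The 10 members are described last. The other 31 members, 8 with their peak at 1 h and 23 at 2 h, were higher at the peak than untreated in each of the 3 clones. Over those 31 the median ratio of peak to untreated was 1.99 (range 1.51 to 18.2), of 4 h to peak 0.618 (0.330 to 0.695) and of 4 h to untreated 1.20 (0.750 to 11.1). Over all 14185 genes tested the medians of these ratios were 0.965, 0.954 and 0.925.

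**Figure D1:**
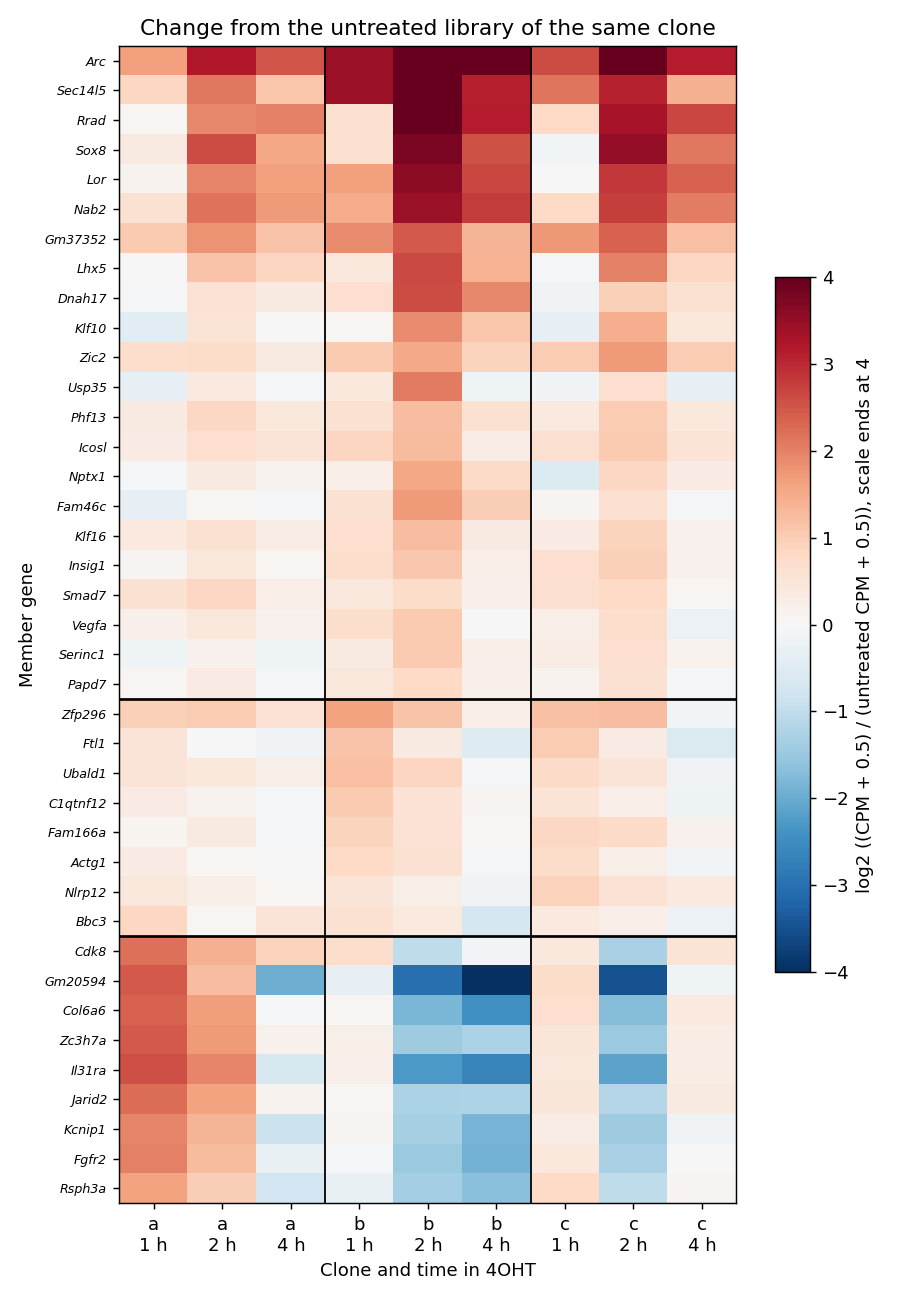
Colour gives the log2 ratio of a library's CPM to the untreated library of the same clone (0.5 CPM added to both) for 39 of the 41 members in rows and the 9 treated libraries, by clone and time, in columns. Thick lines separate 22 members with a peak at 2 h, 8 with a peak at 1 h and 9 that were highest in clone a at 1 h. In most rows of the upper 2 blocks the colours are deepest in clone b and palest in clone a, and in the last block only clone a is red at 2 h.

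Several members are shown with the sequence that the reference gives for them, since sequence is something the rule did not use. Short-lived mRNAs often carry AU-rich elements in the 3′UTR, whose core nonamer is TTATTTATT. It was found in 4 of the 30 other members with an annotated 3′UTR (13.3%), against 8.13% of all genes tested, and among these 4 were Nab2, Klf16 and Vegfa, all with a peak at 2 h. Sites of these named members are given as 30 bases with the nonamer in capitals.
Nab2, 706 bases after the stop codon: gtacagtagaTTATTTATTttgttattttg
Klf16, 676 bases after it: gggaaagaaaTTATTTATTgtcctctctga
Vegfa, 1674 bases after it: ttgttatcatTTATTTATTggtgctactgt
None of the 10 members highest in clone a at 1 h, 9 of which have an annotated 3′UTR, held the nonamer. The median 3′UTR of the 30 other members was 1466.5 bp, against 1141 bp over the genes tested. Per kb of 3′UTR the nonamer was found 0.137 times in them, against 0.0686 times. The shorter letters ATTTA went the other way, with 1.65 per kb against 1.82. A match is a description of the letters and says nothing of how fast the mRNA decayed.

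Of the 41 members, 28 had a promoter window in the RefSeq table (GRCm38.p6, 250 bases before to 50 after the start), and 19 of the other 31 had 22 windows. The AP-1 letters TGAGTCA were in 2 of the 22 windows on either strand (9.09%), against 5.20% of all 32851 windows and 3.87% of windows of genes tested. The CArG box, the motif of SRF, was in 1 window (4.55% against 1.63% and 1.32%), that of Actg1. The letters TATAAA were in 2 (9.09% against 13.6% and 7.27%), those of Ftl1 and Lor. The CRE letters TGACGTCA, the ETS letters CCGGAAGT and the EGR letters GCGTGGGCG were in 0 of the 22 windows, against 1.79%, 3.89% and 0.612% of all windows. Among windows of genes tested these shares were 2.85%, 7.38% and 1.18%, and nothing is read from these counts of 0. The KLF/SP letters GGGGCGGGG were in 6 (27.3% against 11.4% of all windows and 20.7% of windows of genes tested), those of Bbc3, Fam46c, Sec14l5, Sox8, Vegfa and Zfp296. A pair of stretches is shown because they hold these motifs close to the start. The first is Lor, chr3:92083143-92083292 on the minus strand, 150 bases up to the start, with AP-1 and TATAAA in capitals, and the second is Actg1, chr11:120348546-120348645 on the minus strand, ending 51 bases before the start, with the CArG box in capitals.
Lor: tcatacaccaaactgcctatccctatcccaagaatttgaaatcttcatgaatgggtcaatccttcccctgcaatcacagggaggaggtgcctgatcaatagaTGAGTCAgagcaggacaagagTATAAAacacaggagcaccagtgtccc
Actg1: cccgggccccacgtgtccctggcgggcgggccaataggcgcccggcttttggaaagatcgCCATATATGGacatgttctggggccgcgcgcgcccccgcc
Arc, Rrad, Klf10 and Zic2 are among the members with no window in that table.

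The genes themselves were short. By the GENCODE M21 annotation (GRCm38), the other 31 members had a median span of 9035 bp, against 25451.5 bp over the genes tested and 26472 bp over those with a mean of at least 3 CPM. A span under 10 kb was found for 19 of 31 (61.3%, against 23.4%), and at most 3 exons in the longest transcript for 10 of 31 (32.3%, against 14.2%). The 8 with a peak at 1 h had a median span of 3924 bp and the 23 with a peak at 2 h 9525 bp. The 10 members highest in clone a at 1 h had a median span of 73054 bp, and 4 of them were longer than 100 kb. These shares are a description over genes and have no test.

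Arc encodes an activity-regulated cytoskeletal protein of neurons and is a textbook immediate-early gene (chr15:74669083-74672570, minus strand, 3 exons). In clones a, b and c it stood at 20.9, 30.7 and 32.2 CPM untreated, 66.5, 336 and 201 CPM at 1 h, 196, 778 and 576 CPM at 2 h and 122, 537 and 287 CPM at 4 h. Every treated library lay above every untreated one, and in each clone 2 h was the highest time. The mean went from 27.9 ± 6.15 to 517 ± 296 CPM (± SD, n = 3), an 18.2-fold rise, and at 315 ± 209 CPM it was 11.1-fold above untreated at 4 h. In all 3 clones Arc met the conditions of rise and fall, with a rise of 9.18-fold in clone a, 24.96-fold in clone b and 17.6-fold in clone c.

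Nab2 encodes a corepressor that binds EGR transcription factors (chr10:127660918-127668568, minus strand, exons overlapping Stat6 and Nemp1). Its level in clones a, b and c was 31.7, 32.4 and 43.1 CPM untreated, 48.1, 91.4 and 74.6 CPM at 1 h, 145, 356 and 295 CPM at 2 h and 105, 227 and 179 CPM at 4 h. The untreated libraries lay below all of the others, while clone b at 4 h lay above clone a at 2 h, so that the 2 h and 4 h groups overlapped. The mean rose 7.35-fold and was 4.71-fold above untreated at 4 h. It thus kept 58.4% of its rise at 4 h, close to the 58.8% of Arc.

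Klf10, a zinc finger repressor first described as a TGF-β-inducible early gene, was lower at 1 h than untreated by its mean and rose after that (chr15:38291463-38300706, minus strand). Its levels were 104, 79.4 and 99.9 CPM untreated, 76.8, 83.5 and 79.1 CPM at 1 h, 152, 293 and 272 CPM at 2 h and 105, 171 and 137 CPM at 4 h. The 2 h group lay above both earlier groups without overlap, but clone b at 4 h exceeded clone a at 2 h. The relative Klf16, from the same family of zinc finger factors, stood at 48.4, 53.2 and 56.5 CPM untreated, 63.2, 84.1 and 70.5 CPM at 1 h, 73.7, 125 and 106 CPM at 2 h and 59.3, 67.7 and 63.5 CPM at 4 h. For Klf16 the 2 h group lay above the untreated and the 4 h group without overlap, but clone b at 1 h exceeded clone a at 2 h. Its rise was 1.92-fold and 22.3% of it was left at 4 h.

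Sox8, a SoxE-class developmental transcription factor (chr17:25565892-25570686, minus strand, exons overlapping 2810468N07Rik), was barely counted before 2 h. It had 0.265, 0.248 and 0.405 CPM untreated and 0.483, 0.660 and 0.342 CPM at 1 h, then 4.21, 9.59 and 9.80 CPM at 2 h and 1.76, 3.91 and 3.40 CPM at 4 h. The 2 h libraries were above all others, and the 4 h libraries above all of the untreated and 1 h ones. Lhx5, a LIM homeodomain factor of the forebrain, followed the same order with 0.365, 0.289 and 0.662 CPM untreated, 1.39, 4.45 and 4.20 CPM at 2 h and 1.08, 1.56 and 1.57 CPM at 4 h, except that clone a at 2 h fell below clones b and c at 4 h. Lhx5 also has exons that overlap another gene, Gm27199.

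Zic2, a zinc finger factor of neural development that is also expressed in primed pluripotent cells, began earlier than Sox8. Its levels in clones a, b and c were 18.5, 18.6 and 11.3 CPM untreated, 30.2, 39.2 and 23.1 CPM at 1 h, 31.1, 53.8 and 38.0 CPM at 2 h and 23.8, 35.1 and 23.3 CPM at 4 h. All treated libraries were above the untreated ones, and the 4 h mean was 1.68-fold above untreated. Phf13, a chromatin reader with a PHD finger, went from 25.5, 31.2 and 32.4 CPM to 45.2, 74.7 and 66.3 CPM at 2 h and was at 33.9, 48.2 and 43.7 CPM at 4 h, which in every clone lay between its own untreated and 2 h values.

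Among genes of signalling, Smad7, the inhibitory SMAD that blocks TGF-β and BMP receptors, had a like rise in each clone. In clones a, b and c it was at 94.9, 86.6 and 109.7 CPM untreated, 144, 119 and 170.3 CPM at 1 h, 168, 146 and 191 CPM at 2 h and 115, 99.6 and 115 CPM at 4 h. Each time from untreated to 2 h was higher than the one before in all 3 clones, with a rise of 1.77, 1.68 and 1.74-fold in clones a, b and c. The 4 h group lay below the 2 h group without overlap, at 1.13-fold of untreated by the means. At 2 h it was lowest in clone b, where 29 of the 31 members were lowest in clone a.

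Vegfa encodes a growth factor for blood vessels and was at 17.0, 22.1 and 26.6 CPM untreated, 19.6, 36.0 and 32.3 CPM at 1 h, 23.2, 46.4 and 43.3 CPM at 2 h and 19.1, 22.2 and 22.8 CPM at 4 h. Clone a at 2 h lay below clone c untreated, so that the groups overlapped, but each clone was highest at 2 h. Its 4 h mean was 0.978 of untreated. Icosl, the ligand of the T cell costimulator ICOS, rose 2.06-fold and was at 1.37-fold of untreated at 4 h. Nptx1, a secreted neuronal pentraxin, was at 2.49, 2.60 and 3.09 CPM untreated and 3.31, 8.64 and 5.85 CPM at 2 h, with its smallest rise in clone a.

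Rrad, a small GTPase of the RGK family that inhibits calcium channels (chr8:104628070-104631327, minus strand, exons overlapping Gm33023), came from almost nothing. Its 6, 7 and 5 counts in the untreated libraries are 0.199, 0.289 and 0.184 CPM, and it was at 0.241, 0.729 and 0.683 CPM at 1 h, 2.14, 13.9 and 6.16 CPM at 2 h and 2.35, 6.52 and 3.86 CPM at 4 h. The 2 h and 4 h libraries were all above the earlier ones. In clone a, however, 4 h was higher than 2 h, so that the fall was seen in clones b and c only. The addition of 0.5 CPM makes its 10.9-fold rise smaller than the ratio of the bare means.

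Lor encodes loricrin, a protein of the cornified envelope of skin. It had 2, 3 and 1 counts in the untreated libraries and 1.69, 6.90 and 3.33 CPM at 2 h, with 1.28, 3.50 and 2.25 CPM at 4 h. At 1 h it was counted 42 times in clone b and 3 and 1 times in clones a and c, so that clone b alone had moved. The peak of 3.97 CPM lies just above the limit of 3 CPM. At 4 h 58.2% of its rise was left, near the 56.1% of Rrad.

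Sec14l5, a SEC14-like protein with a lipid-binding fold (chr16:5147109-5187271, plus strand), differed widely between clones. Its levels were 1.23, 1.24 and 1.21 CPM untreated in clones a, b and c, 2.53, 18.3 and 7.02 CPM at 1 h, 6.91, 48.2 and 14.1 CPM at 2 h and 3.19, 14.5 and 4.13 CPM at 4 h. The untreated values were nearly equal, and clone b at 4 h was above clones a and c at 2 h. Its rise was 4.29-fold in clone a, 27.98-fold in clone b and 8.52-fold in clone c, and each clone met the conditions of rise and fall.

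**Figure D2:**
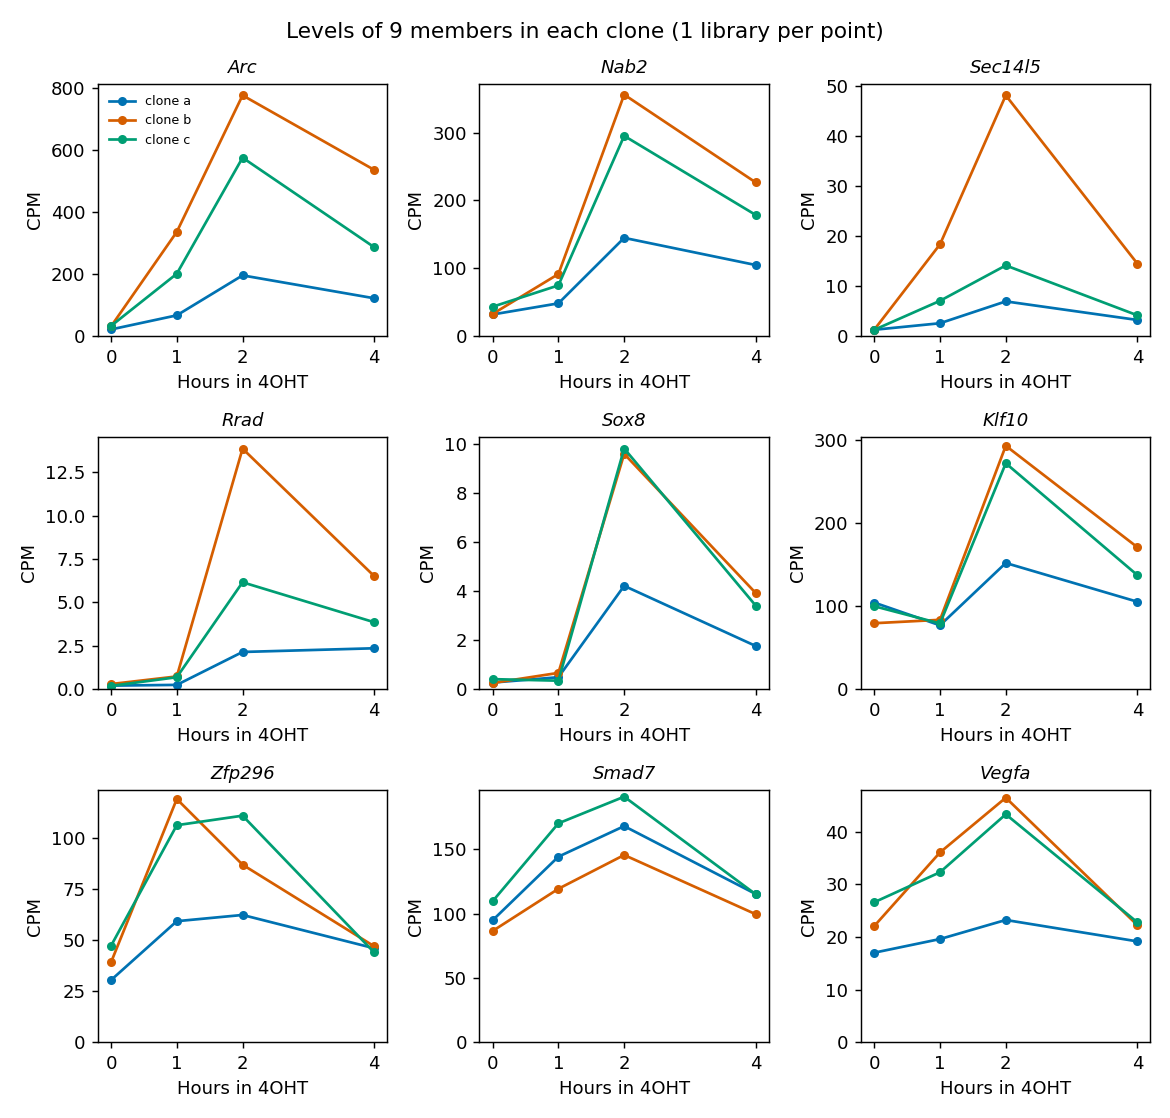
Each panel plots the CPM of 1 member (y axis from 0) against hours in 4OHT, with 1 point per library and 1 line per clone. Arc, Nab2, Sec14l5 and Rrad are highest in clone b and lowest in clone a at 2 h, Smad7 has 3 near-parallel lines, and Zfp296 is highest at 1 h in clone b but at 2 h in clones a and c.

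Other genes with a peak at 2 h came from RNA tailing, protein turnover and lipid control. Fam46c and Papd7 both encode non-canonical poly(A) polymerases. Fam46c was at 6.89, 6.98 and 6.40 CPM untreated and 7.36, 23.7 and 10.3 CPM at 2 h, and Papd7, whose exons overlap Nsun2, was at 53.9, 57.5 and 58.9 CPM and 67.4, 100. and 90.4 CPM. In Fam46c the clone b value stood far above the others, whereas the Papd7 groups were separate with a small rise of 1.51-fold. Insig1, which holds the sterol sensor SCAP in the endoplasmic reticulum, rose 1.76-fold to 116, 120.4 and 148 CPM at 2 h, and at 88.5, 68.9 and 85.4 CPM at 4 h all its clones were lower again. Serinc1, of the serine incorporator family, rose 1.58-fold to 142, 241 and 173 CPM.

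In Usp35 and Dnah17, as in Sec14l5, Rrad and Fam46c above, the 2 h library of clone b stood well above those of clones a and c. Usp35, a deubiquitinase, was at 9.94, 9.87 and 9.57 CPM untreated and 13.1, 43.4 and 15.4 CPM at 2 h, the clones again in the order a, b, c, and it was back at 9.57, 8.75 and 7.49 CPM at 4 h. Dnah17, an axonemal dynein heavy chain whose exons overlap Pgs1 and Gm11738, was at 5.63, 7.23 and 9.35 CPM untreated and 8.56, 46.2 and 18.6 CPM at 2 h, with 7.34, 28.8 and 14.4 CPM at 4 h. Both left the set when that library was left out, as did other members, since 25 of the 41 remained. The predicted gene Gm37352, which has 1 exon, was more even, with 1.52, 1.86 and 2.06 CPM untreated, 6.50, 12.5 and 12.6 CPM at 2 h and 3.95, 5.60 and 5.42 CPM at 4 h, and it met the conditions in each clone.

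The 8 members with a peak at 1 h were near their untreated level at 4 h, with 4 h means of 0.750 to 1.17 of untreated. Zfp296, a zinc finger factor of pluripotent cells (chr7:19577287-19580656, plus strand, exons overlapping Gemin7), rose most. It was at 30.5, 39.2 and 47.3 CPM untreated, 59.3, 119 and 106 CPM at 1 h, 62.4, 87.0 and 111 CPM at 2 h and 46.1, 47.0 and 44.0 CPM at 4 h in clones a, b and c. The 1 h and 2 h libraries lay above all untreated and 4 h libraries. Clones a and c were slightly higher at 2 h than at 1 h, so the 1 h peak of the mean came from clone b.

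Bbc3 encodes PUMA, a BH3-only promoter of apoptosis and a p53 target, and was at 5.53, 7.10 and 7.40 CPM untreated, 10.2, 11.1 and 9.91 CPM at 1 h and 8.06, 4.26 and 6.23 CPM at 4 h. The 1 h libraries were above all untreated and 4 h ones, but the rise of 1.52-fold lay close to the limit of the rule. Ubald1, a small protein with a UBA-like domain, went from 16.7, 17.2 and 19.2 CPM to 24.1, 40.6 and 33.0 CPM at 1 h and 19.7, 16.6 and 17.5 CPM at 4 h. C1qtnf12, a secreted C1q-related protein, and Fam166a, whose exons overlap those of Tubb4b, peaked at 5.49 CPM and, in the second, 4.4 CPM.

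A pair of members of this group are abundant proteins whose genes have many near-identical copies, so that their counts are uncertain. Ftl1, the ferritin light chain, was at 9.01, 10.9 and 9.79 CPM untreated, 13.0, 24.9 and 20.3 CPM at 1 h and 8.10, 7.48 and 6.34 CPM at 4 h. Actg1, cytoplasmic γ-actin, was at 20.8, 23.0 and 20.8 CPM untreated, 26.4, 39.9 and 35.2 CPM at 1 h and 20.6, 22.5 and 19.1 CPM at 4 h. In both, the 1 h libraries were above all untreated and 4 h libraries, and in Ftl1 every 4 h library was also below every untreated one. How reads that match several places were counted is not given in the sources used here.

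Nlrp12, an NLR-family immune regulator, is uncertain for another reason (chr7:3218784-3249740, minus strand). Its annotated exons overlap 7 microRNA genes (Mir291a, Mir291b, Mir292, Mir292b, Mir293, Mir294 and Mir295), all but Mir292b on the plus strand, and whether the counting used strand is not given in the sources used here. These microRNAs are abundant in embryonic stem cells, and 4 of the 13 mature sequences are shown with the seed, bases 2 to 8, in capitals, because 3 of them share it (RefSeq, GRCm38.p6).
miR-291a-3p, chr7:3218968-3218989: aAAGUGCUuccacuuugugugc
miR-294-3p, chr7:3220691-3220712: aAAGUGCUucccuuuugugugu
miR-295-3p, chr7:3220815-3220837: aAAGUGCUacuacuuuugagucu
miR-291b-3p, chr7:3219529-3219550: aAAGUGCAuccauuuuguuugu
Mature microRNAs were not measured here. The counts assigned to Nlrp12 were 171, 177 and 145 CPM untreated, 232, 254 and 275 CPM at 1 h, 202, 209 and 216 CPM at 2 h and 179, 160.0 and 189 CPM at 4 h. All 1 h libraries were above all others, and the clones were close to each other at every time.

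Levels at 4 h divided the other 31 members further. In 10 (Arc, Sec14l5, Rrad, Sox8, Lor, Nab2, Gm37352, Lhx5, Dnah17 and Zic2) the 4 h mean was above 1.5 times untreated, and in the remaining 21 it was within 1.5-fold. In CPM of library totals, the 4 h libraries were above all untreated ones in 13 members and below all of them in 1 (Ftl1), where over all genes tested this held for 17.0% and 27.9%. The 4 h mean was below the untreated mean in 7, among them Usp35, Ftl1, Vegfa, C1qtnf12, Actg1 and Bbc3. These directions depend on the scaling. With TMM scaling the log2 change at 4 h was above 0 in Vegfa (0.083), C1qtnf12 (0.056) and Actg1 (0.058). It was below 0 in Usp35 (−0.078), Ftl1 (−0.329) and Bbc3 (−0.016). The median share of the rise that was left at 4 h was 22.3%, with a range from −27.4% in Ftl1 to 58.8% in Arc.

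**Figure D3:**
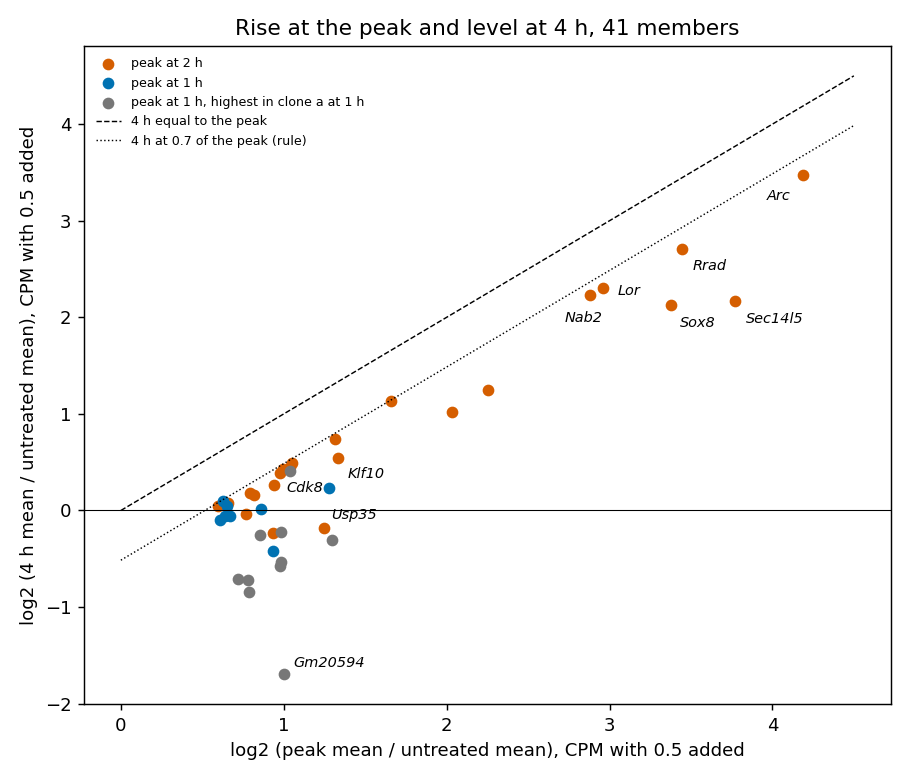
Each point is 1 of the 41 members, with the log2 ratio of the peak mean to the untreated mean on the x axis and of the 4 h mean to the untreated mean on the y axis (0.5 CPM added). The dotted line is the rule's limit of 0.7, below which all members must lie. The 10 members that are above 1.5-fold of untreated at 4 h all have their peak at 2 h, and 9 of the 10 members highest in clone a at 1 h lie below 0.

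The clones stood in a repeated order. The members were chosen on means of these same libraries, in which a clone with high levels weighs most, and those highest in clone a at 1 h are described apart, so the order is in part fixed by the choice and is given as a description. At the peak, clone b was the highest of the 3 clones in 7 of the 8 members with a 1 h peak and 19 of the 23 with a 2 h peak, and clone a the lowest in 7 of 8 and 21 of 23. At 2 h clone a was the lowest clone in 29 of the 31 members, against 33.9% of all genes tested. The rise of at least 1.5-fold was met in 15 of 31 members in clone a, 30 in clone b (all but Nlrp12) and 29 in clone c (all but C1qtnf12 and Bbc3). The fall to 0.7 or less was met in 8, 31 and 26. Both were met in all 3 clones by 5 members, Arc, Sec14l5, Sox8, Gm37352 and Smad7. The order of the clones, b above c above a, was also that of the Esr1 counts, and the part of those counts in the clones' difference was not tested.

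To read the pattern in libraries whose means did not choose the genes, the rule was applied to 2 clones and its conditions were then read in the one left out. The symbols set aside were left out on both sides of each comparison. The rule itself came with earlier results of all clones known, so the left-out clone is not fully independent of it. Chosen without clone b, 17 of 33 genes (51.5%) met all conditions in clone b, against 0.503% of the symbols not chosen that reached 3 CPM there. Chosen without clone c, 22 of 38 (57.9%) met them in clone c, against 0.313%. Chosen without clone a, 5 of 55 (9.09%) met them in clone a, against 0.161%, and 19 met the rise and 9 the fall there. Of the 10 genes highest in clone a at 1 h, which were all chosen without clone b and again without clone c, 1 met the conditions in clone b and 2 in clone c. That group was defined over all 12 libraries, those of clones b and c among them. Its counts are therefore in part fixed by the definition, and nothing is read from them.

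Calls made by the model for all genes are given for completeness. The members were chosen on the same contrasts, so nothing is read from these counts. By edgeR's quasi-likelihood test (Benjamini-Hochberg adjusted p under 0.05), 1 of the 41 members was called higher at 1 h than untreated (Nlrp12), against 0.0775% of all genes tested, and 19 were with clone as a replicate block. At 2 h 23 members were called higher, against 9.56%. Lower at 4 h than at 1 h were 7 members (14 with the block), against 8.74%, and lower at 4 h than at 2 h were 2, Insig1 and Smad7 (24 with the block), against 1.41%. Higher at 4 h than untreated were 10 (16 with the block), against 18.0%. When clone c was left out, 1 of the 41 was still called higher at 4 h and 0 were called in the other comparisons, where each group had 2 libraries. Without overlap, the peak lay above the untreated group in 8 of the 8 members with a 1 h peak, against 4.51% of all genes, and in 21 of the 23 with a 2 h peak, against 9.46%. The peak lay above the 4 h group in 8 of 8, against 15.8%, and in 10 of 23, against 8.34%.

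The gene lists to which members belong were read in the same fit. Members in a list were chosen on these same libraries, and the lists also hold symbols set aside by name. The counts of such a list are therefore in part fixed by the choice. Of 28 tested immediate-early transcription factors, a list that holds Klf10 and 7 of the symbols set aside, 6 were called higher than untreated at 1 h, 21 at 2 h and 20 at 4 h by edgeR. Over all genes tested these shares were 0.0775%, 9.56% and 18.0%. Lower at 4 h than at 1 h were 5 (Egr2, Fos, Klf4, Hes1 and Id2), against 8.74% of all genes tested, while 8 were higher at 4 h than at 1 h, against 10.8%. The list's median log2 change from untreated was 0.96, 1.67 and 1.70 at 1, 2 and 4 h, against −0.02 over all genes tested at each time. With clone as a replicate block, 14, 22 and 22 were higher, 8 were lower at 4 h than at 1 h, 7 lower than at 2 h and 15 higher than at 1 h. Without clone b 7 and 15 were higher than untreated at 2 and 4 h, and without clone c 0 and 6.

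The list of feedback inhibitors, Sprouty, Spred and dual-specificity phosphatase genes with Il17rd, Errfi1 and Lrig1, holds none of the 41 members. This follows in part from the rule, which sets Spry4, Dusp1 and Dusp2 aside by name, and of these Spry4 met all conditions. Of the 18 tested, 3, 11 and 14 were higher than untreated at 1, 2 and 4 h, against 0.0775%, 9.56% and 18.0% of all genes tested. Higher at 4 h than at 1 h were 11, against 10.8%. The block moved the 1 h count to 6. Without clone c 1 and 8 were higher than untreated at 2 and 4 h, and without clone b 7 and 11. In 29 other immediate-early genes, the list of Arc, 7 and 11 were higher at 2 and 4 h, against 9.56% and 18.0% of all genes tested. The counts were 16 and 15 with the block, 1 and 6 without clone b and 0 and 3 without clone c.

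The list of Bbc3 held calls in both directions. Of 18 tested p53 targets, 5 were higher and 3 lower than untreated at 2 h by edgeR, against 9.56% and 6.64% of all genes tested. Higher at 4 h than untreated were 4 (Plk3, Gadd45a, Pmaip1 and Aen), against 18.0%, and 2 were higher at 4 h than at 1 h, against 10.8%. In the other direction, 10 were lower at 4 h than at 1 h by edgeR, against 8.74% of all genes, and 7 were lower at 4 h than untreated, against 15.1%. The 10 were Cdkn1a, Ccng1, Sesn1, Btg2, Plk2, Bbc3, Trp53inp1, Zmat3, Rrm2b and Polk, of which Btg2 and Plk2 are among the symbols set aside. The list's median log2 change from 1 h to 4 h was −0.71, against −0.00 over all genes tested. With the block 13 were lower at 4 h than at 1 h and 9 lower than untreated. Without clone b these counts were 6 and 4, and without clone c 0 and 2. Higher at 4 h than at 1 h and than untreated were 3 and 4 with the block. Those counts were 1 and 3 without clone b and 0 and 1 without clone c. Of the list of Actg1 and Arc, SRF targets and actin cytoskeleton genes, 4 of 17 were higher at 2 h (Srf, Actb, Zyx and Arc), and Actg1 and Rhob were lower at 4 h than at 1 h. Over all genes these shares were 9.56% and 8.74%. With the block the counts were 9 and 4, without clone b 0 and 2, and without clone c 0 and 0.

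In Smad7's list of 20 BMP, TGF-β and Nodal genes, 7 were higher and 2 lower than untreated at 2 h (9.56% and 6.64% of all genes tested). Lower at 4 h than at 2 h were 3 of the 20, against 1.41% of all genes tested. They were Tdgf1, Nodal, which is a symbol set aside by name, and Smad7, which the rule chose for such a fall. With the block the counts of higher and lower at 2 h and of lower at 4 h were 9, 6 and 9. Without clone b they were 3, 1 and 0, and without clone c all were 0. In Vegfa's list of 15 tested growth factors and cytokines, 5 were higher at 2 h and 5 at 4 h, against 9.56% and 18.0% of all genes tested, and 1 (Fgf4) was lower at 4 h than at 2 h, against 1.41%. The counts were 7, 8 and 4 with the block, 2, 4 and 0 without clone b and 0, 1 and 0 without clone c. Of 18 tested genes of mRNA decay and translation control, a list that holds no member since Btg2, which met the conditions, was set aside by name, 5 were higher at 2 h, against 9.56% of all genes tested: Zfp36, Zfp36l1 and Zfp36l2, whose products bind AU-rich elements, Btg3 and Zc3h12a. The block gave 8, and without clone b or clone c the count was 0.

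The 10 members highest in clone a at 1 h shared an order of clones at the other times. They were grouped by that library, so their large rise in clone a is in part fixed by the choice and is a description. In clone a their rise had a median of 4.94-fold (3.06 to 9.31), while in clone b it was 1.07 (0.804 to 1.61) and in clone c 1.41 (1.23 to 1.74). In all 10, clone a was the lowest clone untreated and the highest at 2 h, and clone c was the highest at 4 h. Those orders held for 33.0%, 39.4% and 18.0% of all genes tested, one order at a time. The same orders held in all 5 of the symbols set aside that were highest in clone a at 1 h, Lars2, Cd44, Gphn, Kpna1 and Camk1d.

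Jarid2, a cofactor of Polycomb repressive complex 2 (chr13:44729474-44921643, plus strand), is an example. In clones a, b and c it stood at 1199, 3365 and 2405 CPM untreated, 5671, 3528 and 3389 CPM at 1 h, 3672, 1413 and 1057 CPM at 2 h and 1334, 1431 and 3063 CPM at 4 h. Clone a rose and came back to near its untreated level, clone b was level at 1 h and low afterwards, and clone c at 4 h was above its own untreated library. The set-aside gene Lars2, a mitochondrial leucyl-tRNA synthetase, was at 5361, 15566 and 10674 CPM untreated, 27053, 13521 and 14564 CPM at 1 h, 17451, 2242 and 1052 CPM at 2 h and 1837, 822 and 8925 CPM at 4 h. It shared the peak in clone a at 1 h and the low values of clones b and c at 2 h, but at 4 h each of its clones was below its own untreated library.

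Cdk8, the kinase of the Mediator complex, was at 977, 2048 and 2201 CPM untreated and 4500.5, 3301 and 2928 CPM at 1 h, and at 1850.4, 1885 and 3221 CPM at 4 h its clones b and c were near or above untreated. For Cdk8 all 1 h libraries lay above all untreated ones, as in 6 of the 10. Fgfr2, an FGF receptor that signals to ERK, was at 146, 354 and 223 CPM untreated, 596, 346 and 301 CPM at 1 h, 353, 126 and 90.3 CPM at 2 h and 119.6, 95.2 and 223 CPM at 4 h. In clone b Fgfr2 did not exceed its untreated level at any time. Its annotated exons overlap those of Ctbp2.

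Il31ra, the receptor of interleukin-31, was at 79.8, 235 and 216 CPM untreated, 482, 269 and 297 CPM at 1 h, 309.7, 47.2 and 48.7 CPM at 2 h and 50.6, 36.7 and 268 CPM at 4 h. Il31ra, Col6a6 and Rsph3a have exons that overlap Gm3226, Gm38314 and E430024P14Rik. Zc3h7a, with CCCH zinc fingers, rose 1.97-fold by the means and the predicted gene Gm20594, of 1 exon, 2.00-fold. Col6a6, a collagen VI chain, Kcnip1, a potassium channel partner, and Rsph3a, a radial spoke protein, had peak means of 8.55, 5.27 and 3.32 CPM. In 9 of the 10 the 4 h mean was below untreated, the exception being Cdk8 at 1.33-fold. What these libraries share was not tested. A list of 18 symbols joined structural and other noncoding RNA genes with Lars2, Gphn and Camk1d, which were taken from the symbols set aside. Only those 3 were in the count table, and all of them passed the filter on low counts. As none of the RNA genes was in the table, nothing is read from that list.

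**Figure D4:**
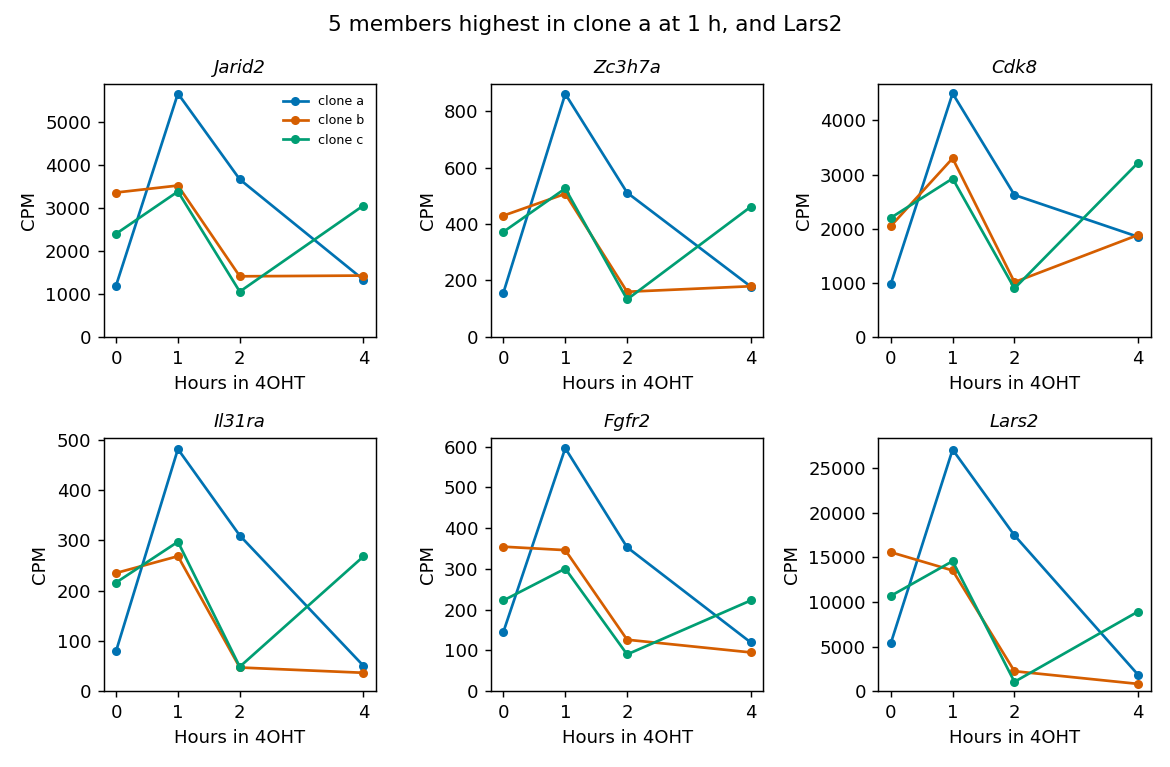
Each panel plots CPM (y axis from 0) against hours in 4OHT with 1 point per library and 1 line per clone, for 5 of the 10 members highest in clone a at 1 h and for Lars2. In every panel clone a starts lowest, peaks at 1 h and stays above clones b and c at 2 h, and clone c is highest at 4 h.

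The limits of the rule cut through a continuous range of values. For the rise of 1.5, Papd7 (1.51), Bbc3 (1.52) and Nlrp12 (1.55) were just inside, and Mog (1.48), Fgfrl1 (1.48) and Aurka (1.43) just outside. For the fall to 0.7, Dnah17 (0.695), Nlrp12 (0.694) and Papd7 (0.686) were inside and Hspa1b (0.7001), Zic5 (0.701) and Slc25a25 (0.704) outside. For the peak of 3 CPM, Rsph3a (3.32), Lhx5 (3.35) and Lor (3.97) were inside and Chac1 (2.78), Ghsr (2.51) and Tspan18 (2.05) outside. Without the 2 h library of clone a, 81 genes met the rule, among them all 41, and 72 did when clone b at 4 h was dropped, among them 39. When clone b at 2 h was dropped 29 did, 25 of them members, and Arc, Nab2, Sec14l5 and Rrad were among those lost.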

How the data were processed

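Total RNA of 12 cultures was sequenced after depletion of ribosomal RNA, per the labels' protocols. The times of 1, 2 and 4 h come from the titles and the series design, since the samples' treatment protocol lists 2 h only. What the authors deposited was 1 table of unnormalized counts by gene symbol. The submitters' processing notes name STAR, featureCounts, DESeq and mm10, and no source used here gives their versions, the annotation or the strand setting. Genes with overlapping exons are therefore uncertain.

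Totals of 24213641 to 31435301 counts set the precision. Within a time, pairs of libraries differed beyond counting error (chi-square over its degrees of freedom, 18.5 to 103 in 12 pairs), and all 12 were kept. The time and clone letter in a column's name gave its sample. From the deposited counts, CPM of column totals gave the members. The members and the gene lists were chosen with earlier results of these data known, and the lists hold textbook genes. Named were the 25 members with the largest rise, the 5 with the lowest ratio of 4 h to peak, the 5 with the highest peak, the members of a list and the 3 symbols nearest each limit on both sides, without predicted genes. That rule names 34 members, and the remaining ones are named to account for the members, after their values were seen. For 2 members no values are reported here by name, while counts and medians over the set include them.

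Genes passing filterByExpr (minimum count 10, minimum total 15), 14185 of 25897, were scaled by TMM and tested 2-sided with edgeR 4.0.16 (limma 3.58.1, R 4.3.3), with Benjamini-Hochberg adjustment and a threshold of 0.05. The fit had 8 residual degrees of freedom and a biological coefficient of variation of 0.163. All 41 members passed the filter. Alternatives were DESeq2 1.42.0 and limma-voom, other scalings and filters, a clone block, and each library or clone left out. The clone letter pairs libraries across times, as it marks the same cell clone. Same-clone deviations from the time means correlated with r 0.184 to 0.684 over 18 pairs, against −0.568 to −0.024 over 36 pairs of different clones. With clone as a block the coefficient of variation was 0.0924 at 6 residual degrees of freedom. Gene spans and 3′UTRs came from GENCODE M21 (GRCm38), to which 14118 genes tested and all 41 members matched, Fam46c and Papd7 through RefSeq synonyms. Coordinates count from 1.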

Additional observations from a re-analysis of the deposited data

How the results depend on the processing

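The 41 members became 18 when the rise had to be 2-fold, 17 when the fall had to reach 0.5 of the peak and 5 when every clone had to meet the rule. Other scalings, pseudocounts of 0.1 and 1, medians and peak limits of 1 and 10 CPM gave 30 to 49, of which the medians kept 29 of the 41 and TMM-scaled CPM 40. With 1 library or 1 clone left out the number ranged from 29 to 81, and single libraries and the counts of members called under other fits were chosen after seeing the data. With clone as a replicate block, 768 genes rather than 11 were called higher at 1 h than untreated, 2924 rather than 1356 at 2 h, 2802 rather than 1240 lower at 4 h than at 1 h, 1415 rather than 200 lower at 4 h than at 2 h and 3652 rather than 2140 lower at 4 h than untreated. Among members the block gave 19, 14, 24 and 16 calls for higher at 1 h, lower at 4 h than at 1 h, lower at 4 h than at 2 h and higher at 4 h than untreated. DESeq2 called 100 genes higher at 1 h and 556 lower at 4 h than at 2 h, and limma-voom called 6 higher at 1 h. Leaving out 1 library or clone gave 0 to 26 genes higher at 1 h, 1 to 1803 higher at 2 h, 10 to 1790 lower at 4 h than at 1 h, 0 to 569 lower at 4 h than at 2 h, 648 to 2927 higher at 4 h and 271 to 2632 lower at 4 h, with the lowest counts without clone c except for the 1 h comparison and the 4 h against 2 h comparison, where leaving out clone b or c gave 0 alike. Among members the ranges were 0 to 2 higher at 1 h, 0 to 25 higher at 2 h, 0 to 10 lower at 4 h than at 1 h, 0 to 14 lower at 4 h than at 2 h and 1 to 12 higher at 4 h. The cause of these shifts was not tested. The log2 changes of the 34 named members kept their direction under RLE scaling, the block, each clone left out and log2 of CPM with 0.5 added, the last of which moved 5 of 68 values by more than the spread between clones, while leaving out clone c moved 1, that of Rsph3a. The KLF/SP letters on the gene strand only were in 5 of 22 windows. Depth limits members such as Lor, with 1 to 3 counts in each untreated library.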
